A study of Homo sapiens with 42 samples.

Results

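The shortest chromatin loops of K562 cells are described here: the loops whose anchors lie at most 50 kb apart. They were chosen by length alone, as the loops of the deposited table with a distance of 50 kb or less between the starts of their anchors, which gave 855 of 33914 loops. No contact count entered the choice. Of these, 82 were 30 kb long, the shortest length in the table, 372 were 40 kb and 401 were 50 kb. Another 476 loops lay just outside the limit, at 60 kb. K562 is an established human leukemia line, labelled as wild type, and all cultures came from this 1 line. PMA, a phorbol ester, was given at 25 nM to drive the cells toward a megakaryocyte-like state, and in situ Hi-C was done after 0 h, 6 h and 72 h. Cells at 0 h had no time in PMA, the medium was changed during the 72 h treatment, and no culture kept for 72 h without PMA was analysed here. Each time had 4 biological replicates, made up of 14 sequenced samples per time and 42 in all. Contact counts hold no expression markers, so the labelled cell state could not be checked against marker genes.

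A chromatin loop is seen in Hi-C as a pair of loci that are joined by ligation more often than their neighbourhood. Many loops form where cohesin extrudes DNA until it meets CTCF at the anchors, and others join promoters to enhancers. Contacts become rarer as the distance along the chromosome grows, so the shortest loops lie closest to the dense contacts near the diagonal of the map. The count of a loop is the number of read pairs between its anchors of 10 kb and still contains that local background. Phorbol esters activate protein kinase C, and in K562 cells this lowers erythroid features and raises megakaryocytic ones.

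The anchors of short loops often held gene starts, and 6 of these promoters are shown because loops at them carry the changes described below. Each line gives the 250 bases before a gene start that lies in an anchor, 5′ to 3′ on the gene's strand, from RefSeq (GRCh38.p14), with CG dinucleotides in capitals.
PRKCE (chr2:45651425-45651674, plus strand; loop gained at 72 h): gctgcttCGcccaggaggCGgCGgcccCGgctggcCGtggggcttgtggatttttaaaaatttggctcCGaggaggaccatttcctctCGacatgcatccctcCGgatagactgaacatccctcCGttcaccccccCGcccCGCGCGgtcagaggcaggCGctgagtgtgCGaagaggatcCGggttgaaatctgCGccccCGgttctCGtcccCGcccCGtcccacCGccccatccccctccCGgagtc
MALL (chr2:110118140-110118389, minus strand; loop gained at 6 h and 72 h): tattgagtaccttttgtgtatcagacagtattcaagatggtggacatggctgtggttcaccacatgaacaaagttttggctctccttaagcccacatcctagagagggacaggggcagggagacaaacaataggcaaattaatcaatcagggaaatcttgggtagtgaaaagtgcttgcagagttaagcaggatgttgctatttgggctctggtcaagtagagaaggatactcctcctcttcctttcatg
TACC2 (chr10:122112635-122112884, plus strand; loop gained at 6 h and 72 h): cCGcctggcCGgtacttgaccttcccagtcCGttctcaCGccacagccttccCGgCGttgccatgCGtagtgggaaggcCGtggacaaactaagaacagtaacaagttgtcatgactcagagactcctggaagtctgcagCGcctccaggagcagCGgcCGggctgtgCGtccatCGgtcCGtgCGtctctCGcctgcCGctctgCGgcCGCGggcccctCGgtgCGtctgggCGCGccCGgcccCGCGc
RHOC (chr1:112707409-112707658, minus strand; loop lost at 6 h and 72 h): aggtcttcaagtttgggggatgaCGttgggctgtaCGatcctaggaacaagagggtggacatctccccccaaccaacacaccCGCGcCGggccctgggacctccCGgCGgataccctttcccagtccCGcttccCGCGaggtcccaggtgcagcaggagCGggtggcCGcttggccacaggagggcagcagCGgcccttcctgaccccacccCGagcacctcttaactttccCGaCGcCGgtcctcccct
JUND (chr19:18281623-18281872, minus strand; loop lost at 72 h): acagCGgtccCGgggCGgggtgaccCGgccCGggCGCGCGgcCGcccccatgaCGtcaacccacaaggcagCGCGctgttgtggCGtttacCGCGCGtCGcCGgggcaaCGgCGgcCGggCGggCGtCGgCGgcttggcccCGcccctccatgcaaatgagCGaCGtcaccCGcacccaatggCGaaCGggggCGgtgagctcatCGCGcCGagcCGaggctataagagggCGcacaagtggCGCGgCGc
KLF1 (chr19:12887202-12887451, minus strand; loop lost at 72 h): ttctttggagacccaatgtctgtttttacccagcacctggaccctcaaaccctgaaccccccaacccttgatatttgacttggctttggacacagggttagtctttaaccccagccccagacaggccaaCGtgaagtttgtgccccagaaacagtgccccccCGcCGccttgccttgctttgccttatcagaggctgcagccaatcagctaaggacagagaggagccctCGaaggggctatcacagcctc
The number of CG dinucleotides in these windows was 23 for PRKCE, 0 for MALL, 27 for TACC2, 17 for RHOC, 40 for JUND and 4 for KLF1. High and low numbers stood on both sides, among gained and among lost loops.

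The short loops were among the most deeply counted of the table. The 12 libraries held 736929 to 1472197 contacts over all loops, and the short loops took 66445 to 146739 of them. The median count of a short loop was lowest in replicate 3 at 6 h, at 71 contacts with an exact 95% Poisson interval of 55.5 to 89.6, and highest in replicate 1 at 0 h, at 155 contacts with an interval of 132 to 181. The intervals cover counting error only. All 855 short loops passed the filter on low counts, as against 24132 of all 33914 loops. In normalized counts, which are contacts per 1000000 contacts in tested loops after TMM scaling, the median short loop had 102 and the median tested loop 29.4. Replicates 3 and 4 did not differ beyond sampling noise at 0 h (chi-square 1.01 per degree of freedom, p = 0.0591) or at 72 h (1.00, p = 0.489). At 6 h they differed slightly over all loops (1.02, p = 0.0327), though not over the short loops alone (1.03, p = 0.284, as against 1.03, p = 0.283, at 0 h). They count as 1 sample in the means of 0 h and 72 h, so that n = 3 at 0 h, 4 at 6 h and 3 at 72 h, and the separate count at 6 h rests on a narrow margin. With 1 sample of them at every time, the share of contacts described next differed by -0.88 percentage points at 6 h (exact permutation test, p = 0.10). The fits kept all 12 libraries, and p-values then measure the spread between these libraries.

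Short loops held a smaller part of all loop contacts in PMA. Their share was 9.97%, 9.42%, 10.06% and 9.75% in the 0 h libraries of replicates 1 to 4. It was 9.004%, 8.54%, 9.02% and 9.21% at 6 h. At 72 h it was 8.90%, 8.81%, 8.42% and 8.51%. The 95% Wilson intervals of these shares reached at most 0.0654 percentage points to either side. No library in PMA reached the lowest 0 h share, while the 6 h and 72 h libraries overlapped. The mean was 9.76% ± 0.30 (SD, n = 3) at 0 h, 8.94% ± 0.28 (n = 4) at 6 h and 8.73% ± 0.23 (n = 3) at 72 h. The difference from 0 h was -0.82 percentage points at 6 h (two-sided exact permutation test, p = 0.0571) and -1.04 at 72 h (p = 0.10), each the smallest p that these numbers of samples allow, and both adjusted to 0.129 over the 9 library measures tested. These p-values cannot pass 0.05 in this design. Within replicates 1 and 2 the 72 h difference was -0.84, and within replicates 3 and 4 it was -1.44. From 6 h to 72 h the share differed by -0.22 (exact p = 0.286), with 0.08 within replicates 1 and 2 and -0.65 within replicates 3 and 4.

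The same order was seen against the next longer loops and among the short loops themselves. The log2 ratio of contacts in short loops to contacts in loops of 60 to 100 kb was -1.08 ± 0.01 (SD, n = 3) at 0 h, -1.12 ± 0.01 (n = 4) at 6 h and -1.15 ± 0.01 (n = 3) at 72 h. Loops of 30 kb supplied 12.1% ± 0.16 of the contacts in short loops at 0 h, 11.6% ± 0.12 at 6 h and 11.2% ± 0.089 at 72 h. For both measures every library in PMA lay below every 0 h library, and the exact p again could go no lower than 0.0571 at 6 h and 0.10 at 72 h. The ratio fell by 0.04 at 6 h and by 0.06 at 72 h on the log2 scale, so short loops and loops of 60 to 100 kb moved nearly in step.

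**Figure D1:**
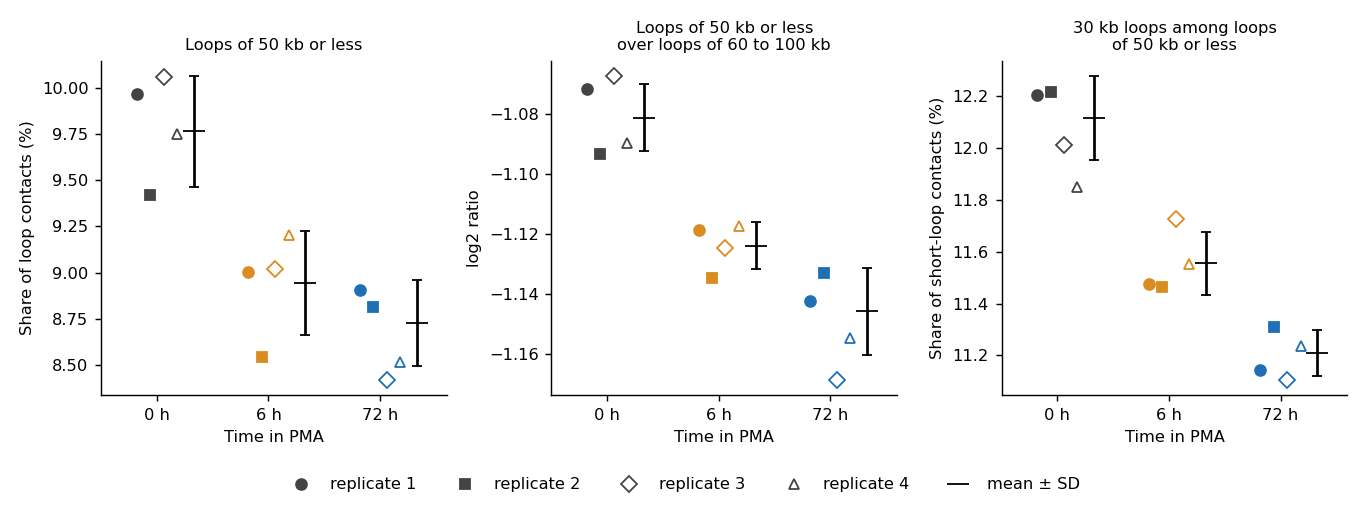
The 3 panels plot, for each library by time in PMA, the share of all loop contacts held by loops of 50 kb or less (%), the log2 ratio of their contacts to those of loops of 60 to 100 kb, and the share of 30 kb loops among contacts in short loops (%). Symbols are libraries, with replicates 3 and 4 open, bars are mean ± SD (n = 3, 4 and 3), and the axes do not start at 0; every library in PMA lies below every 0 h library in each panel.

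Loop by loop, losses outnumbered gains among the short loops at both times against 0 h. At 6 h, 149 of 855 short loops were lost (17.4%) and 11 were gained (1.29%) by edgeR's quasi-likelihood test at an adjusted p under 0.05, where 4.07% of all tested loops were lost and 2.34% gained. At 72 h, 388 were lost (45.4%) and 72 were gained (8.42%), where 16.9% of all tested loops were lost and 16.7% gained. From 6 h to 72 h, 91 were lost (10.6%) and 63 gained (7.37%), close to the 9.81% and 10.7% of all tested loops. The share of short loops lost was thus above the background in both comparisons with 0 h, and the share gained was below it. Both comparisons use the same 0 h libraries. The median log2 change, the log2 of the fold change, was -0.14 at 6 h and -0.23 at 72 h over the short loops, and 0.01 for all tested loops in both. Below 0 lay 652 of 855 short loops at 6 h and 638 at 72 h.

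Most of these losses were small. At 72 h, 47 short loops were lost by at least 1.5-fold (5.50%), below the 6.07% of all tested loops, and 27 were gained by at least 1.5-fold (3.16%), where 11.3% of all tested loops were. The higher share of losses among short loops was thus not seen for losses of this size. The median normalized count was 102 for short loops and 29.4 for all tested loops, and these shares were not compared at similar counts. All 4 libraries of 72 h lay below all 4 of 0 h for 318 short loops (37.2%), against 14.1% of all tested loops, and above them for 58 (6.78%), against 14.2%. At 6 h the libraries did not overlap for 154 short loops that were lower (18.0%), against 5.77% of all tested loops, and for 17 that were higher (1.99%), against 4.97%. The 6 h counts leaned on 2 libraries: without replicate 1 of 0 h, 81 short loops were lost and 4 gained, and without replicate 2 of 6 h, 83 were lost. Replicates 1 and 2 alone gave 61 lost and 5 gained at 6 h and 187 lost and 50 gained at 72 h. Replicates 3 and 4 alone gave 33 and 4 at 6 h and 301 and 38 at 72 h. These fits use fewer libraries, and the share of all tested loops called in each was not compared.

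**Figure D2:**
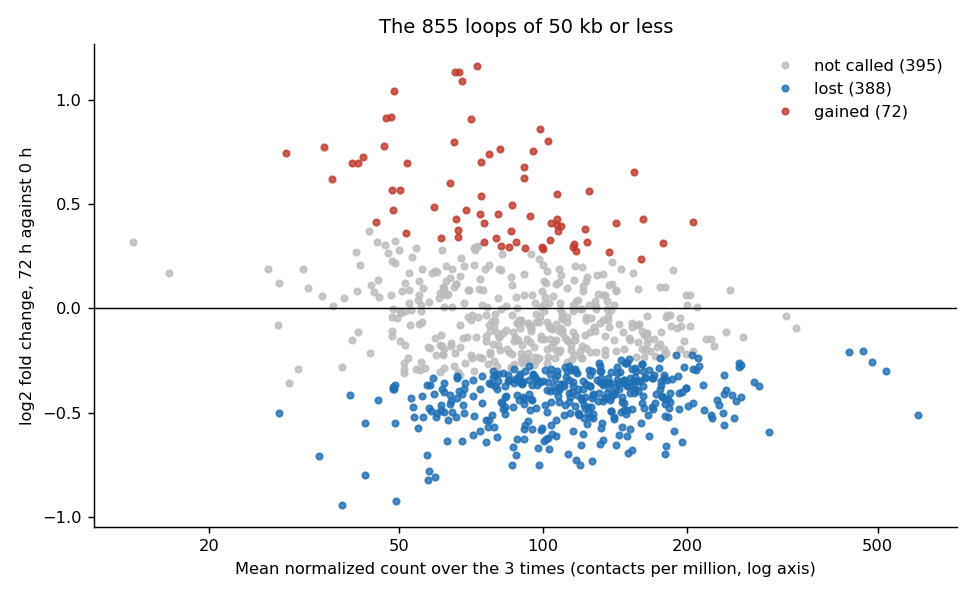
Each point is 1 of the 855 short loops, with its mean normalized count over the 3 times on a log axis and its log2 change at 72 h against 0 h. The 388 lost loops (blue) form a band at small negative values across the whole range of counts, and the 72 gained loops (red) lie mostly at low counts and reach larger changes.

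The surplus of losses depended on how loop length was treated. When an offset fitted to loop length in each library was added, the median of the short loops at 72 h was -0.06 and at 6 h 0.00. At 72 h, 166 short loops were then lost (19.4%) and 140 gained (16.4%), against 15.9% and 13.7% of all tested loops under the same correction. At 6 h, 30 were lost and 29 gained, against 2.35% and 1.75%, and from 6 h to 72 h, 77 were lost and 73 gained, against 10.0% and 9.58%. Scaling the libraries by TMM over the short loops alone gave 146 lost and 159 gained at 72 h and 60 lost and 36 gained at 6 h. The shares of all tested loops under that scaling were not compared. The median short loop thus lay below 0 at 72 h with and without the length correction, but much closer to 0 with it. With the correction the 72 h median was -0.03 for all tested loops, -0.08 for 60 kb and -0.05 for 70 to 100 kb. A median below 0 was thus not particular to the short loops. Lost loops outnumbered gained ones by far only where the scaling used loops of all lengths without regard to length. The length correction and TMM over the short loops both place the typical short loop near 0 by construction. The smaller surplus under them was thus fixed in advance and is no test of the surplus.

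Within the short loops the change differed by length. The median log2 change for 72 h was -0.35 for loops of 30 kb, -0.25 for 40 kb and -0.19 for 50 kb, and it was -0.21 for loops of 60 kb, just outside the limit. Lost loops made up 61.0% of the 30 kb loops, 47.6% of the 40 kb loops and 40.1% of the 50 kb loops, against 39.3% at 60 kb. Gained loops made up 1.22%, 6.18% and 11.97%, against 11.8% at 60 kb. Values just inside and just outside 50 kb were thus close to each other. At 6 h, 32.9% of the 30 kb loops, 18.0% of the 40 kb loops and 13.7% of the 50 kb loops were lost. Longer loops continued the series at 72 h, with medians of -0.14 for 70 to 100 kb, -0.09 for 110 to 200 kb, -0.01 for 210 to 400 kb and 0.18 for 410 kb or more. With the length correction the medians at 72 h were -0.12 for 30 kb, -0.07 for 40 kb and -0.04 for 50 kb, against -0.08 at 60 kb.

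**Figure D3:**
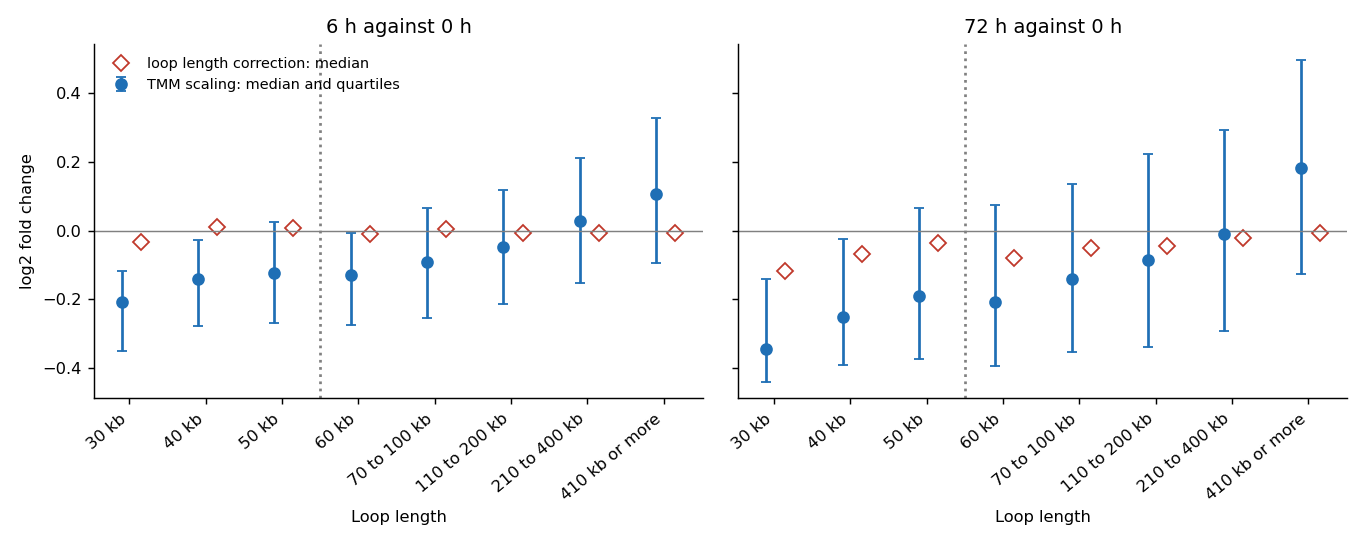
Median log2 change by loop length at 6 h and 72 h against 0 h, with quartiles as bars (blue, TMM scaling) and as the median alone after the loop length correction (red diamonds). The dotted line marks the 50 kb limit; with TMM scaling the medians at 72 h go from -0.35 at 30 kb to 0.18 at 410 kb or more, with each class above the one before it except 60 kb (-0.21, beside -0.19 at 50 kb), and after the correction they lie between -0.12 and 0.01 in both panels.

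Short loops also had more counts than longer ones, and at larger counts smaller changes can pass the test. The change itself also went with counts. From counts of 25 to 50 up to 200 or more, the median log2 change of short loops at 72 h was 0.07, -0.18, -0.29 and -0.29. For longer loops it was 0.004, -0.13, -0.23 and -0.29. The part of either in the share lost was not tested. Among loops with mean normalized counts of 100 to 200, 55.2% of 395 short loops were lost at 72 h, against 45.7% of 1211 longer loops. At counts of 200 or more the shares were 71.7% of 46 short loops and 69.1% of 68 longer loops. At counts of 50 to 100 they were 35.2% of 352 and 29.2% of 4616. At counts of 25 to 50 they were 21.7% of 60 and 15.9% of 7065. Without regard to counts they were 45.4% and 15.9%, so the margin at 72 h was far smaller at similar counts. At 6 h the margin remained large at high counts. There, 24.3% of short and 14.0% of longer loops were lost at counts of 100 to 200, 30.4% and 16.2% at 200 or more and 9.94% and 8.28% at 50 to 100, beside 17.4% and 3.57% without regard to counts. These shares are descriptions without a test.

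The shortest loops lay at genes more often than other loops. Among them, 318 had the start of a protein-coding gene in an anchor, 263 at 1 anchor (30.8%) and 55 at both (6.43%), against 17.9% and 2.08% of all tested loops. Loops just outside the limit were close to them, with 26.5% and 5.67% at 60 kb and 26.1% and 3.99% at 70 to 100 kb. The median log2 change at 72 h was -0.18 for the 537 loops without a start, -0.30 for those with 1 and -0.35 for those with both. Lost at 72 h were 209, 143 and 36 of them, and gained were 58, 13 and 1. With the length correction 91, 58 and 17 were lost and 107, 30 and 3 gained. Among the short loops, losses thus made up more, and gains less, of those that joined gene starts under both settings. Calls among longer loops were not split by gene starts, so whether this is particular to short loops was not tested. Their median normalized counts also differed, at 98.1, 108 and 117, and the part of counts in the difference was not tested.

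**Figure D4:**
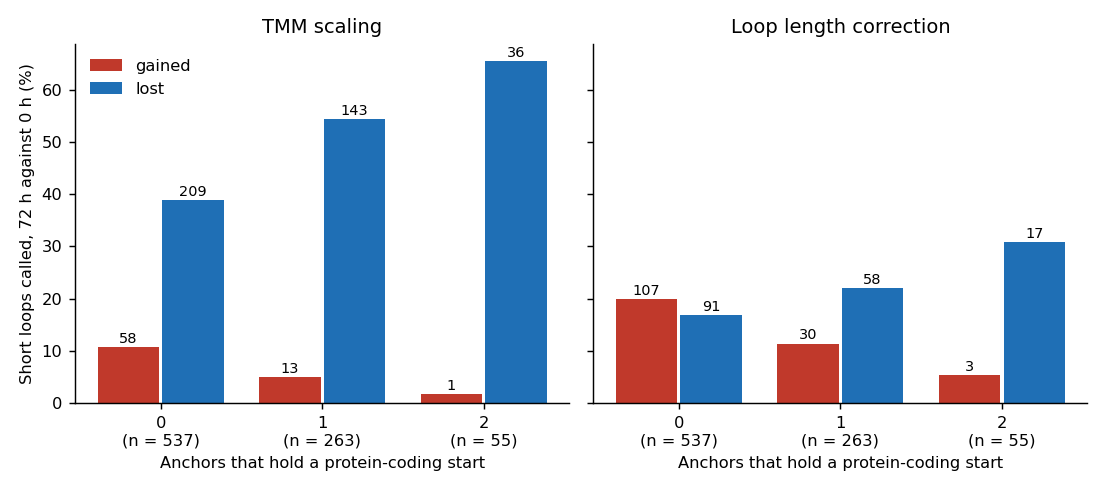
Bars give the percentage of short loops gained (red) or lost (blue) at 72 h against 0 h by the number of anchors that hold a protein-coding gene start, with TMM scaling and with the loop length correction; numbers over the bars are loops. Of the 55 loops with a start in both anchors, 36 were lost and 1 gained with TMM scaling, and 17 and 3 with the correction.

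Among the 855, 31 loops ran from one end of a protein-coding gene to the other. Of these 24 were lost at 72 h and 0 gained, or 13 and 1 with the length correction. Their median log2 change at 72 h was -0.36, against -0.23 for all short loops. The 149 short loops that lay wholly inside a gene had a median of -0.20, near that of all short loops, with 58 lost and 12 gained. Of all 855 short loops 45.4% were lost and 8.42% gained. The median normalized count was 118 for spanning loops and 87.6 for inside loops, against 102 for all short loops. The part of counts in the difference was not tested. Calls among longer loops that span a gene or lie inside one were not examined. Short loops shared anchors less often than others: 414 of them (48.4%) had no anchor in common with another loop, against 17.1% of all tested loops. This share also ran on with length, from 43.4% at 50 kb to 39.9% at 60 kb and 26.9% at 70 to 100 kb. The 855 formed 718 pairs with a longer loop at a common anchor. In 148 pairs both loops were called at 72 h, and 134 of these changed in 1 direction, 109 lost and 25 gained, while 14 changed in opposite directions. With the length correction 85 of 104 such pairs changed in 1 direction. In the other comparisons few pairs were called at both loops: 12 of 18 changed in 1 direction at 6 h and 24 of 31 from 6 h to 72 h. These counts do not take the general surplus of losses into account. Pairs at 1 anchor share contacts with the same fragment ends and are not independent.

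Promoters at short loops had a higher median number of CG dinucleotides than promoters at large, and those at gained loops a lower one. The quartiles overlapped, at 10 to 28 for short loops, 5 to 25 for all starts and 2 to 20.8 at gained loops. Promoters at longer loops were not compared. The 531 protein-coding starts in anchors of short loops had a median of 20 CG dinucleotides in the 250 bases before the start, against 16 for all 22199 starts. At lost loops the median was 20 over 321 starts, at uncalled loops 20 over 194 starts, and at gained loops 7.5 over 16 starts. With the length correction it was 8 over 40 starts at gained loops and 20 over 151 at lost loops. Starts of 1 gene can lie close together, so these windows partly overlap, and the medians are descriptions. Among the promoters printed above, PRKCE and TACC2 go against the low median at gained loops, as KLF1 does against the high one at lost loops.

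Short loops were unevenly spread over the genome. They made up 9.33% of the loops on chromosome 9, 9.15% on chromosome 19 and 7.35% on chromosome 17, but 0.49% on chromosome 4 and 0.24%, a single loop, on chromosome 18. On chromosome 9, 16 of them lay at 130 to 140 Mb and 13 at 120 to 130 Mb. Counts were not corrected for copy number, whose part in this spread was not tested. The 10 Mb window with the most was at 40 to 50 Mb of chromosome 19, with 23 of its 138 loops. Chromosome 19 is known as the most gene-dense human chromosome. Of its 60 short loops 32 were lost (53.3%) and 1 gained (1.67%) at 72 h, and of the 75 on chromosome 9, 26 were lost (34.7%) and 5 gained (6.67%), beside 45.4% and 8.42% of all short loops.

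The largest rises at 72 h were found at loops that started from low counts. The largest rises and falls named here and below were picked among called loops whose libraries did not overlap in that comparison. Their separation there is thus no added support. The loop between chr8:23790001-23800000 and chr8:23830001-23840000 (hg38), which ends 2 kb from STC1, the gene of the secreted hormone stanniocalcin 1, had normalized counts of 54.3, 50.3, 36.4 and 46.6 at 0 h. It had 52.9, 65.4, 50.9 and 60.3 at 6 h and 121, 116, 90.5 and 109.8 at 72 h. The 72 h libraries stood clear of all others, while 6 h and 0 h overlapped. The rise at 72 h had a log2 change of 1.16 ± 0.13 (SE; adjusted p = 3.94e-14, edgeR). A loop inside PSD3, which encodes an exchange factor for ARF6, joined chr8:18810001-18820000 and chr8:18860001-18870000. It went from 47.4 ± 6.66 (SD, n = 3) at 0 h and 46.4 ± 9.05 (n = 4) at 6 h to 106 ± 11.6 (n = 3) at 72 h. That change was wholly late: the log2 change was -0.01 at 6 h and 1.13 at 72 h (edgeR, adjusted p = 2.87e-13).

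A pair of late gains lay near each other on chromosome 7. The loop between chr7:54790001-54800000 and chr7:54830001-54840000, 31 kb from SEC61G, a subunit of the channel that passes proteins into the endoplasmic reticulum, had 36.2, 57.9, 38.9 and 52.3 at 0 h and 99.1, 125, 96.7 and 91.05 at 72 h. Its log2 change was 1.13 ± 0.13 (adjusted p = 6.4e-13, edgeR). The other, within the region of EGFR, the receptor of epidermal growth factor, joined chr7:55190001-55200000 and chr7:55240001-55250000 and had 62.3, 51.3, 43.9 and 53.4 at 0 h and 96.4, 123, 83.2 and 108 at 72 h. It rose by 0.91 ± 0.13 on the log2 scale (adjusted p = 1.5e-09, edgeR). Neither differed at 6 h, with log2 changes of -0.07 and -0.06.

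Gains that were present by 6 h included the loops at MALL and TACC2. MALL encodes a small membrane protein of the MAL family, and its loop (chr2:110110001-110120000 and chr2:110150001-110160000) had 34.04, 52.2, 38.9 and 39.8 at 0 h. The counts were 62.7, 68.2, 72.2 and 69.97 at 6 h and 102, 97.4, 80.1 and 77.7 at 72 h. No library of 1 time overlapped another time, and the log2 change was 0.70 ± 0.15 at 6 h (adjusted p = 0.000593) and 1.09 ± 0.14 at 72 h (adjusted p = 2.56e-11; edgeR). TACC2 encodes a coiled-coil protein that associates with centrosomes and microtubules. Its loop lay inside the gene, with the start printed above in the second anchor (chr10:122060001-122070000 and chr10:122110001-122120000), and had 31.1, 34.2, 32.6 and 27.3 at 0 h, 49.02, 46.7, 48.1 and 49.5 at 6 h and 71.7, 60.2, 68.6 and 66.1 at 72 h. The times again did not overlap. The log2 change was 0.59 ± 0.17 at 6 h (adjusted p = 0.0129) and 1.04 ± 0.15 at 72 h (adjusted p = 3.4e-09; edgeR). The 6 h call was lost without replicate 1 of 0 h (adjusted p = 0.0563, edgeR) and with DESeq2 without independent filtering (adjusted p = 0.0943).

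The other 5 of the 10 largest rises lay between 0.80 and 0.92 on the log2 scale. They were loops over KLF15, a Krüppel-like transcription factor gene (0.92), and over SERPINA1, the gene of alpha-1 antitrypsin (0.91). Others lay 65 kb from USP24, a deubiquitinase gene (0.86), and 68 kb from ERMARD (0.80), with the EGFR loop already described. Of these only the loop near USP24 was called at 6 h, at 0.47 ± 0.13 (adjusted p = 0.0106, edgeR). All 10 kept their direction and their call with the length correction.

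The largest falls did not reach the size of the largest rises. SLC25A37 encodes mitoferrin 1, which brings iron into mitochondria for heme synthesis in erythroid cells. The loop over it (chr8:23470001-23480000 and chr8:23520001-23530000) fell from 166 ± 13.8 (SD, n = 3) to 113 ± 8.56 (n = 4) and 100.1 ± 3.75 (n = 3). It was lost at 6 h (-0.56 ± 0.11, adjusted p = 7.07e-05) and at 72 h (-0.73 ± 0.10, adjusted p = 3.11e-09; edgeR).

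The loop that ended at SUN2 changed late. SUN2 is an inner nuclear membrane protein that links the nucleus to the cytoskeleton, and its start lay in the second anchor of chr22:38710001-38720000 and chr22:38750001-38760000. Counts were 73.9, 69.3, 74.01 and 60.3 at 0 h, 72.6, 72.9, 58.02 and 68.8 at 6 h and 40.7, 43.2, 39.5 and 33.03 at 72 h. The 0 h and 6 h libraries overlapped and all 72 h libraries lay below them. The log2 change was -0.02 ± 0.13 at 6 h and -0.81 ± 0.15 at 72 h (edgeR, adjusted p = 1.51e-06). A loop at SKA1, a gene of the spindle and kinetochore, was the only short loop on chromosome 18 and was already lower at 6 h. It had 70.98, 49.4, 50.2 and 60.3 at 0 h, 32.4, 30.8, 43.9 and 32.6 at 6 h and 32.7, 36.1, 35.4 and 28.6 at 72 h. The log2 change was -0.75 ± 0.16 (adjusted p = 0.000593) and -0.80 ± 0.16 (adjusted p = 1e-05; edgeR).

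The other falls described from among the 10 largest at 72 h ran from -0.92 to -0.75 on the log2 scale. They lay over MARK3, CKB and BAG5 (-0.92), inside PHF21A, which encodes a subunit of a histone demethylase complex (-0.82), and over MICALL2 and INTS1, a subunit gene of the Integrator complex (-0.78). A loop from GGNBP2 to DHRS11 had -0.75, and one with the PRR12 start in an anchor had -0.75. PPP1R16A, a regulatory subunit gene of protein phosphatase 1, was spanned end to end by a 30 kb loop with 109, 141, 110.4 and 122 at 0 h and 67.2, 84.3, 66.6 and 66.1 at 72 h. That loop fell by 0.75 ± 0.12 (adjusted p = 5.94e-08, edgeR). Spanning loops of SAMD4B, which joined its start to those of PAF1 and MED29, and of FADS2, a fatty acid desaturase gene, had log2 changes of -0.67 and -0.65. All 10 largest falls were also called with the length correction, with log2 changes from -0.79 to -0.53.

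Early gains were few with TMM scaling, at 1.29% of short loops and 2.34% of all tested loops. The loop between chr12:75980001-75990000 and chr12:76020001-76030000 reached PHLDA1, a gene of the pleckstrin homology-like family, and had 62.3, 60.8, 70.2 and 63.7 at 0 h and 121, 87.8, 103 and 109.8 at 6 h. At 72 h it had 114, 103, 86.3 and 107, which overlapped 6 h. Its log2 change was 0.70 ± 0.13 at 6 h (adjusted p = 3.5e-05), beside 0.68 ± 0.12 at 72 h (adjusted p = 2.96e-06; edgeR). A loop over CYTH4, which encodes an exchange factor for ARF proteins, rose from 56.00 ± 3.15 (SD, n = 3) to 85.5 ± 6.78 (n = 4) by 6 h and stood at 79.6 ± 8.72 (n = 3) at 72 h. Its log2 change at 6 h was 0.59 ± 0.13 (edgeR, adjusted p = 0.00126).

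Early losses were more numerous with TMM scaling, at 17.4% of short loops and 4.07% of all tested loops. With the length correction 3.51% of short loops were lost and 3.39% gained at 6 h, against 2.35% and 1.75% of all tested loops. A loop with the start of TSC22D1, a leucine zipper gene, in its second anchor (chr13:44390001-44400000 and chr13:44430001-44440000) had 145, 112, 153 and 151 at 0 h and 101, 76.6, 99.1 and 71.2 at 6 h. It fell by 0.68 ± 0.12 at 6 h (adjusted p = 1.4e-05) and fell by 0.60 ± 0.11 at 72 h (adjusted p = 4.55e-06; edgeR). CASP10, the gene of an initiator caspase of death receptors, was spanned by a loop with 170.2, 127, 159 and 171 at 0 h and 111, 93.5, 105 and 89.3 at 6 h. The fall at 6 h was -0.65 ± 0.11 (edgeR, adjusted p = 1.46e-05). A second loop over MICALL2 and INTS1, which overlaps the first, fell by 0.64 ± 0.13 at 6 h (edgeR, adjusted p = 0.000373), while the first had -0.25 ± 0.14 and did not pass (adjusted p = 0.307). At 72 h the overlapping pair had -0.61 and -0.78.

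Between 6 h and 72 h the named changes were at loops that were not called at 6 h, among them the SUN2 loop. A loop inside COL8A1, a collagen gene, had 43.5, 34.2, 33.9 and 34.1 at 0 h, 39.2, 28.97, 39.6 and 32.6 at 6 h and 72.5, 69.3, 63.4 and 55.3 at 72 h. It rose by 0.87 ± 0.16 from 6 h to 72 h (edgeR, adjusted p = 5.57e-06). A loop over GINS2, which encodes a subunit of a DNA replication complex, had 113, 125, 127 and 97.7 at 6 h and 80.5, 70.3, 68.6 and 67.8 at 72 h and fell by 0.67 ± 0.12 (edgeR, adjusted p = 7.12e-06). Loops over NCAPH and SNRNP200, a condensin subunit gene and a spliceosome helicase gene, over CLN8, and from PCBP2 to MAP3K12, a kinase gene, had log2 changes of -0.61, -0.61 and -0.53 in that order. In all 4 of these falls the 6 h log2 change lay between -0.08 and 0.05. That their 6 h and 72 h libraries did not overlap was a condition of the choice.

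A few short loops changed by 6 h and went back by 72 h. In 3 loops a rise at 6 h was followed by a fall, and in 4 a fall was followed by a rise, each step called by edgeR. Both steps use the 6 h libraries, so a library that stands apart at 6 h moves them in opposite directions. The loop inside PLB1, a phospholipase gene, had 89.1, 89.2, 96.6 and 136 at 0 h, 151, 124, 149 and 133 at 6 h and 111, 92.4, 88.4 and 99.98 at 72 h. Replicate 4 at 0 h lay within the range of 6 h. The steps were 0.45 ± 0.11 (adjusted p = 0.00557) and -0.49 ± 0.11 (adjusted p = 0.000597; edgeR). The others that rose and fell were a loop at the start of ANKRD10 (0.49 and -0.47) and one 16 kb from USP12, a deubiquitinase gene (0.62 and -0.39). These 3 early rises were not called without 1 library: without replicate 1 of 0 h the adjusted p was 0.0825 for the PLB1 loop and 0.107 for the ANKRD10 loop, and without replicate 1 of 6 h it was 0.0674 for the loop near USP12 and 0.0520 for the ANKRD10 loop (edgeR). With DESeq2 without independent filtering none of the 3 early rises was called, with adjusted p of 0.0762 for the PLB1 loop, 0.136 for the ANKRD10 loop and 0.0735 for the loop near USP12.

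The loop over ZBTB38, a zinc finger gene whose protein binds methylated DNA, fell and partly returned. It had 183, 169.9, 187 and 179 at 0 h, 126, 102, 126 and 127 at 6 h and 176, 154, 142 and 132 at 72 h. All 6 h libraries lay below all others. The steps were -0.58 ± 0.10 (adjusted p = 4.42e-05) and 0.34 ± 0.11 (adjusted p = 0.0146; edgeR), and 72 h was still below 0 h (-0.24, adjusted p = 0.0408). The loop over LSM3, an RNA-binding protein of the spliceosome, had steps of -0.46 and 0.32, and one near AGFG1 had -0.54 and 0.41. With DESeq2 without independent filtering the fall near AGFG1 was not called (adjusted p = 0.0604), nor was it with the length correction (adjusted p = 0.0571, edgeR). Without replicate 2 of 6 h it was not called either (adjusted p = 0.0612, edgeR). The fourth, named after its values were seen, lay at the starts of CEP170 and SDCCAG8 and had -0.39 and 0.57.

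**Figure D5:**
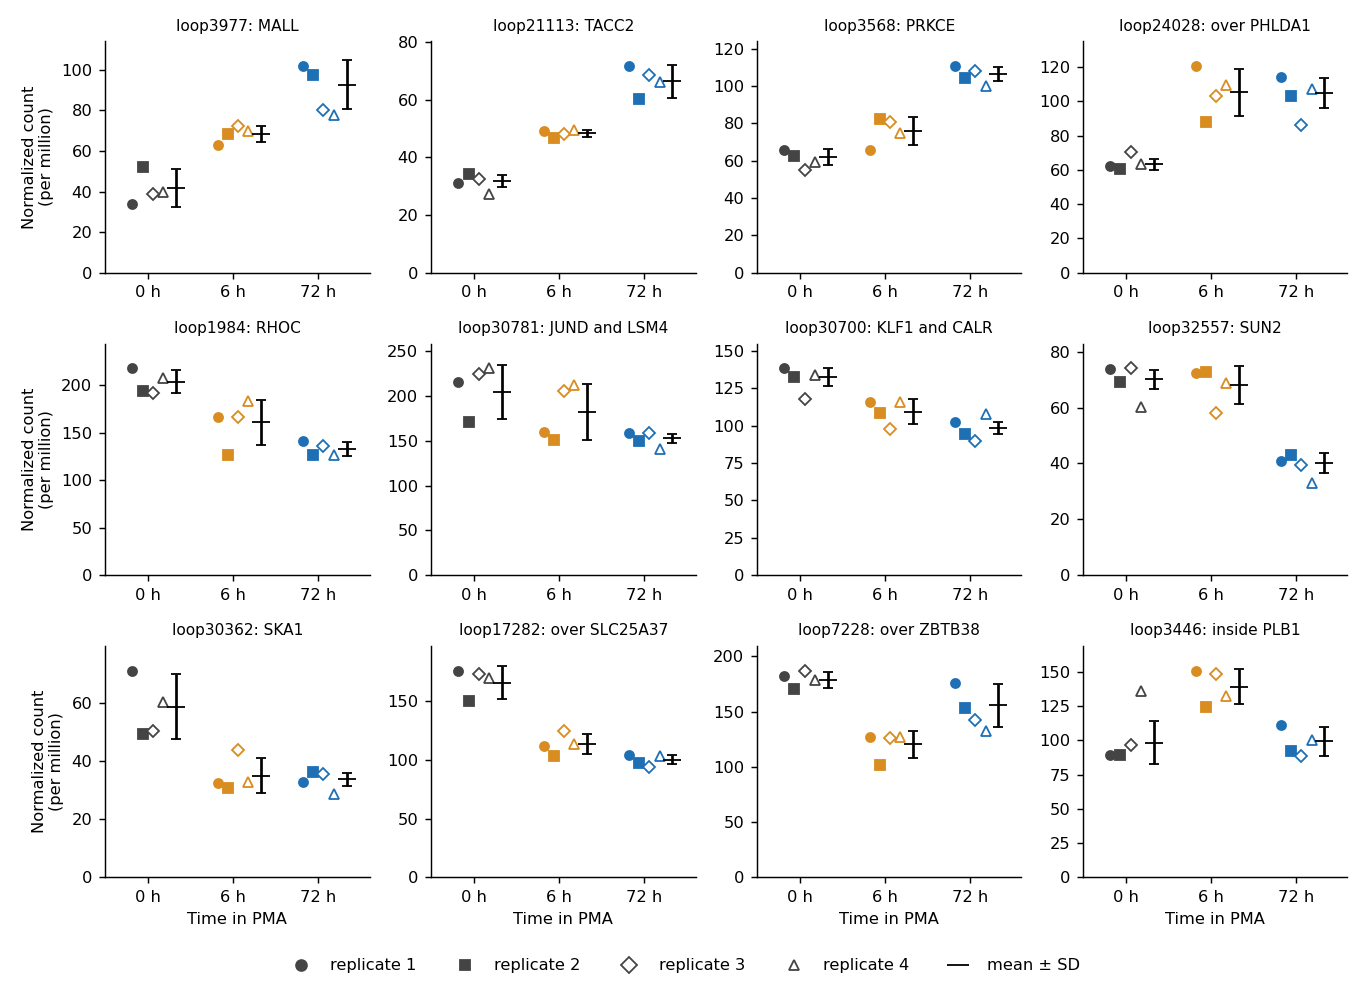
Normalized counts (contacts per 1000000 after TMM scaling) of 12 named short loops in each library at 0 h, 6 h and 72 h of PMA; symbols are replicates, with 3 and 4 open, and bars are mean ± SD (n = 3, 4 and 3). The loops of the top row rise, those at RHOC, JUND, KLF1, SUN2, SKA1 and SLC25A37 fall, and those over ZBTB38 and inside PLB1 turn back after 6 h.

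Short loops lay at genes of 5 of the 7 lists drawn up for the megakaryocyte and PMA programmes and for cohesin and the cell cycle. Of 28 megakaryocyte and platelet genes 1 did, and of 27 erythroid genes 2 did. The lists of AP-1 and immediate early genes (21) and of actin and adhesion genes (24) had 3 and 4, protein kinase C and MAP kinase genes (22) had 2, and cohesin and CTCF genes (11) and cell cycle genes (22) had 0. Of these 12 loops 1 was gained (8.33%) and 6 were lost (50%) at 72 h, beside 8.42% and 45.4% of all short loops, and at 6 h 0 were gained and 2 lost (16.7%), beside 1.29% and 17.4%. The listed genes' loops were thus called about as often as short loops in general, and the loops below are described one by one, not as a result about the lists. At 72 h the median log2 change was -0.42 for the erythroid loops, -0.32 for the actin and adhesion loops, -0.09 for the AP-1 loops and 0.37 for the kinase loops, beside -0.23 for all short loops and 0.01 for all tested loops. Counted by starts in the promoter table alone, 8 of 117 listed genes had a start at a short loop, beside 429 of 15843 protein-coding genes of the table. The loops were found through the start of each gene or, where the promoter table has none, through either end of it.

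The gain was at PRKCE, which encodes protein kinase C epsilon, an isoform that phorbol esters bind. Its loop (chr2:45650001-45660000 and chr2:45700001-45710000) had 65.9, 62.7, 55.2 and 59.1 at 0 h, 65.7, 82.2, 80.7 and 74.8 at 6 h and 111, 104, 108 and 99.98 at 72 h. The 72 h libraries lay above all others, and 6 h overlapped 0 h. The log2 change was 0.29 ± 0.14 at 6 h (adjusted p = 0.181) and 0.76 ± 0.12 at 72 h (adjusted p = 9.28e-08; edgeR). The loop inside PRKCZ, an atypical isoform that phorbol esters do not activate, had 78.8 ± 7.43 (SD, n = 3) at 0 h and 79.6 ± 15.1 (n = 3) at 72 h. Its log2 change was -0.02 ± 0.13 (edgeR, adjusted p = 0.898).

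Erythroid and AP-1 genes had 2 and 3 loops, of which 2 and 1 were lost at 72 h and 0 gained. KLF1, the transcription factor gene that directs red cell development, shared its loop with CALR and FARSA at the other anchor (chr19:12880001-12890000 and chr19:12930001-12940000). The counts were 138, 133, 118 and 134 at 0 h, 116, 108, 97.6 and 116 at 6 h and 103, 94.4, 89.4 and 108 at 72 h. All libraries in PMA lay below those of 0 h, and the log2 change at 72 h was -0.41 ± 0.11 (edgeR, adjusted p = 0.00155). The loop at the fetal globin gene HBG2, which also overlaps the embryonic globin gene HBE1, fell from 139 ± 18.7 (SD, n = 3) to 106 ± 9.75 (n = 3), a log2 change of -0.44 ± 0.11 (edgeR, adjusted p = 0.000627). JUND, an AP-1 subunit gene, was joined to LSM4 by a loop with 216, 171, 225 and 231 at 0 h, 159.8, 151, 205 and 212 at 6 h and 158, 149.6, 159 and 141 at 72 h. At 72 h it fell by 0.46 ± 0.10 (edgeR, adjusted p = 6.35e-05). The loops at MYC and at IER2, an immediate early gene, had log2 changes of -0.09 ± 0.11 and 0.06 ± 0.11 at 72 h and were not called (adjusted p = 0.537 and 0.721, edgeR). With the length correction the KLF1 and HBG2 loops were no longer called (adjusted p = 0.0511 and 0.105), and the JUND loop was (adjusted p = 0.0132; edgeR).

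Of the 4 loops at actin and adhesion genes 2 were lost at 72 h, near the share of all short loops. RHOC, a small GTPase gene, lay at the second anchor of chr1:112660001-112670000 and chr1:112700001-112710000, with 218, 195, 192 and 208 at 0 h, 167, 127, 167 and 183 at 6 h and 142, 126, 136 and 127 at 72 h. It fell by 0.35 ± 0.10 at 6 h (adjusted p = 0.0141) and fell by 0.61 ± 0.10 at 72 h (adjusted p = 1.28e-07; edgeR). The loop at TPM1, the gene of tropomyosin 1, fell by 0.42 ± 0.11 at 6 h (adjusted p = 0.0106) and fell by 0.45 ± 0.11 at 72 h (adjusted p = 0.000615; edgeR). With TMM over the short loops alone the TPM1 loop was not called at 72 h (adjusted p = 0.0536, edgeR). With the length correction both losses held at 72 h (adjusted p = 8.4e-05 and 0.0253) and neither at 6 h (0.195 and 0.11; edgeR). MYL9, a myosin light chain gene, was the 1 megakaryocyte gene with a short loop. That loop fell at 72 h, by 0.37 ± 0.11 (adjusted p = 0.00479), and not with the length correction (adjusted p = 0.105; edgeR). The loop at CDC42, a small GTPase gene, had -0.19 ± 0.10 and was not called (adjusted p = 0.121, edgeR).

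The 5 short loops with the most contacts lay on chromosomes 22 and 9. K562 is known to carry extra copies of parts of both chromosomes around its BCR-ABL1 fusion, and counts were not corrected for copy number. The highest, over SCARF2 and KLHL22 (chr22:20410001-20420000 and chr22:20450001-20460000), had 715, 692, 711 and 655 at 0 h, 587, 637, 637 and 664 at 6 h and 507, 514, 450.3 and 474 at 72 h. It fell at 72 h by 0.51 ± 0.07 (edgeR, adjusted p = 3.88e-09). The other 4 had mean normalized counts between 477 ± 52.8 and 567 ± 3.36 (SD, n = 3) at 0 h and log2 changes from -0.30 to -0.20 at 72 h, all called as lost. Leaving out 1 library ended the call of 3 of them: the loops over ARVCF and TANGO2, over NUP214 and over PTGES had adjusted p of 0.0568, 0.0617 and 0.0677 without replicate 4 of 72 h (edgeR). Only the loop over SCARF2 and KLHL22 was also called with the length correction (-0.32, adjusted p = 9.23e-06, edgeR). With so many contacts, small differences pass the test: these 4 differences were the size of the median shift of all short loops.

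In the authors' deposited table, short loops fell into 3 classes, with 25 classed as gained (2.92%), 24 as lost (2.81%) and 806 as static (94.3%). Over the whole of the authors' deposited table the classes held 1000, 503 and 32411 loops (2.95%, 1.48% and 95.6%). An adjusted p-value under 0.05 stood beside 218 short loops (25.5%) in the authors' deposited table, against 2761 of all 33914 loops (8.14%). The log2 change in the authors' deposited table was filled for all 855 short loops but for only 57.4% of all loops. The shares of all loops given here thus include loops without a log2 change, unlike those of the short loops. Shares over the filled loops alone were not compared. All 25 loops that the authors' deposited table classed as gained were also gained at 72 h in the edgeR fit, with a median log2 change of 0.77, and all 24 classed as lost were lost, with a median of -0.70. The 806 static ones included 364 that were lost and 47 that were gained by edgeR at 72 h, with no minimum fold.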

How the data were processed

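In situ Hi-C contacts of K562 cells were deposited by the authors as raw counts per loop, with technical replicates in 30 separate columns, per the file headers. The submitters' processing notes name Juicer 1.5.6, DESeq2 and the build hg38; how loops were called is not given in the sources used here. The authors' deposited log2 fold changes and adjusted p-values come with no stated reference or test, per the file headers, and the p-value is the same in both of its columns. Anchor positions, the other values of the table, are deposited counted from 0, per the file headers, and are printed counted from 1.

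Technical replicates were summed to 12 libraries. The filter was filterByExpr at a minimum count of 10 and a total of at least 15, and its 24132 loops entered 1 fit (R 4.3.3, edgeR 4.0.16; quasi-likelihood test after TMM scaling, prior count 2). P-values were adjusted over all of them by Benjamini-Hochberg and called at 0.05. SE is the log2 fold change without the prior divided by the root of F. Loops called higher are gained, and lower are lost. The length correction is an offset per library from a loess curve (span 0.3) on log10 length. For measures per library, exact permutation tests were two-sided (scipy 1.17.1). The test was run on simulated counts with a common spread, independent libraries and no shift by loop length. That check thus does not bear on the length trend or on the likeness of replicates 3 and 4. Alternatives were other scalings and filters, DESeq2 1.42.0, a replicate block, subsets of replicates, stricter thresholds and leaving out each library; others were chosen after seeing the data (replicates 3 and 4 summed, or counted as 1 sample, at 0 h and 72 h or at every time).

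Named loops are, among called loops whose libraries do not overlap, the 10 largest rises and falls at 72 h and the 5 at 6 h and from 6 h to 72 h; those with a listed gene at an anchor; the 5 highest counts; up to 3 that changed and went back in each direction; and 3 that span a gene; a loop among the largest falls and a loop at a listed gene are not reported here. The members and lists were chosen with earlier results of these data known. Gene starts and promoters come from RefSeq tables of GRCh38.p14.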

Additional observations from a re-analysis of the deposited data

Results flagged for a closer look

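In 5 of 58 groups of 4 libraries at 6 h, 1 library stood far from the other 3; chance flags about 1 in 20 such groups, and only 6 h has 4 samples counted as separate, of which replicates 3 and 4 differ little. Replicate 3 was high in the loop at SKA1 (43.9 normalized counts against 30.8 to 32.6) and low in the first loop over MICALL2 and INTS1 (38.2 against 63.7 to 66.4). Replicate 1 was low in the loop that spans PPP1R16A (87.3 against 102 to 104). Replicate 2 was low in the loops at TPM1 (81.3 against 98.05 to 101) and over ZBTB38 (102 against 126 to 127).

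Changes that turned back after 6 h were called in opposite directions in both steps by edgeR. They were 3 short loops that rose then fell (inside PLB1, at ANKRD10 and near USP12) and 4 that fell then rose (over ZBTB38, over LSM3, near AGFG1 and at CEP170).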

How the results depend on the processing

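Counts of short loops are given as gained and lost. Except for the length correction and the 1.5-fold counts at 72 h, shares of all tested loops under these settings were not compared. TMM over short loops gave 36 and 60 at 6 h, 159 and 146 at 72 h, and 59 lost from 6 h to 72 h. The loop length correction gave 29 and 30 at 6 h and 140 and 166 at 72 h. DESeq2 gave 5 and 75 at 6 h and 30 and 34 from 6 h to 72 h; without independent filtering it gave 3 and 60, and again 30 and 34. A minimum count of 20 gave 18 gained at 6 h. Replicates 1 and 2 alone gave 5 and 61 at 6 h, 187 lost at 72 h, and 41 and 17 from 6 h to 72 h; replicates 3 and 4 alone gave 4 and 33, 38 gained at 72 h, and 27 gained from 6 h to 72 h. An adjusted p under 0.01 gave 5 and 75 at 6 h and 38 and 35 from 6 h to 72 h, and a fold of at least 1.5 gave 5 and 8, 27 and 47, and 18 and 4 in the 3 comparisons. Leaving out each library in turn gave 4 to 11 gained and 81 to 184 lost at 6 h, 54 to 72 and 330 to 410 at 72 h, and 48 to 64 and 61 to 108 from 6 h to 72 h. With replicates 3 and 4 summed at 0 h and 72 h, 62 were gained and 372 lost at 72 h; summed at every time, 9 and 125 at 6 h, 64 and 368 at 72 h, and 61 and 70 from 6 h to 72 h.

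Deviations of same-numbered libraries correlated weakly but always positively, from 0.02 to 0.12, and at over 0.1 in 1 of 12 pairs. Those of libraries with other numbers correlated at -0.07 to 0.05. A weak pairing by number was thus seen, and the main fit did not use it. A replicate block gave 14 and 187 at 6 h, 77 and 405 at 72 h, and 68 and 103 from 6 h to 72 h.

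With all 12 libraries as separate samples, the exact p was 0.0286 for the share in short loops (-0.86 at 6 h and -1.14 at 72 h), its log2 ratio to loops of 60 to 100 kb (-0.043 and -0.069) and the share of 30 kb loops (-0.51, -0.87, and -0.36 from 6 h to 72 h). The share from 6 h to 72 h differed by 0.084 within replicates 1 and 2, opposite in sign to the main value. Leaving out 1 library reversed none of these 9 measures.

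Of 34 named loops called at 72 h, 7 were not called with the length correction, 8 with TMM over short loops, 1 with DESeq2 and 3 after leaving out 1 library; none changed sign. The causes were not tested.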
